A study of Homo sapiens with 12 samples.

Results

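Caco-2, a line from a human colorectal carcinoma whose cells can take on features of small intestinal enterocytes, was profiled on bead arrays after growth with or without doxycycline. The arrays described here are those of the control line: 3 titled as native and given doxycycline and 3 titled as native controls, 6 of the 12 arrays of the series. Another label calls these cells a control that carries the non-silencing vector, so they hold an inducible hairpin that is meant to target no gene. The remaining 6 arrays, with and without doxycycline, come from Caco-2 cells labelled as carrying an inducible hairpin against NR5A2, the gene of the nuclear receptor LRH-1. A pair of hairpin sequences was made for the study, and which of them is in these cells is not given in the sources used here.

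Doxycycline was added at 5 µg/ml to wells that were nearly full, and total RNA was taken 96 hours later. The labels give no vehicle or time for the untreated wells. Cells grew in medium with nonessential amino acids and fetal bovine serum. NR5A2 was 0.50 log2 units higher with doxycycline in the second line (adjusted p = 0.00997 by limma), not lower. It rose by 0.89 in the control line, to a mean of 11.07 against 10.69 in the second line. The difference of these responses was 0.38, with a 95% interval of 0.06 to 0.71 that is not adjusted for the number of genes. It did not pass limma's test adjusted over all genes (adjusted p = 0.231). With no fall seen in the second line's arrays, they are called the shRNA-labelled line below. Every group shares the Caco-2 background, and all carry a doxycycline-inducible vector, so that the control line comparison holds the drug together with induction of the vector's promoter, its fluorescent marker and its non-silencing hairpin. These cannot be told apart here. Nothing in the labels says whether the 3 arrays of a group came from separate cultures, so p-values measure the spread between these arrays only, which may be technical.

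Doxycycline is a tetracycline, which blocks protein synthesis on bacterial ribosomes and can slow it on the related ribosomes of mitochondria. Cells with impaired mitochondria, or short of amino acids, often switch on the integrated stress response, in which the transcription factor ATF4 raises genes for amino acid synthesis, amino acid import and charging of transfer RNAs. In dividing cells, E2F factors drive the genes of DNA replication before S phase, and the DREAM complex and FOXM1 govern those of mitosis.

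All 12 arrays lay on 1 chip. The median raw intensity of the 6 control line arrays ran from 251 to 386, and 41.2% to 44.7% of the probes were called detected on them. Correlations of the normalized values were 0.987 to 0.993 within a group and 0.976 to 0.983 between the treated and untreated arrays. Levels below are normalized log2 intensities of 1 probe per gene, so that levels of different genes cannot be compared, and a difference of 1 unit is a 2-fold change in intensity. Of 23 enterocyte and Caco-2 markers 17 could be tested, and 14 of those were detected on all 6 arrays, among them VIL1 and CDX2. Probes for FABP1, FABP2, CDX1 and GATA4 did not pass the detection filter. PTPRC, CD3E, COL1A2, COL3A1, THY1, VWF and CDH5, markers of leukocytes, fibroblasts and endothelial cells, did not pass it either. Other markers of these cell types did. Detected on all 6 arrays were 5 of 6 tested fibroblast markers, 3 of 4 leukocyte markers and the 1 endothelial marker tested, PECAM1.

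Of 12566 genes tested with limma, 2008 (16%) differed between the treated and untreated control line arrays at an adjusted p under 0.05. Doxycycline raised 990 genes (7.88%) and lowered 1018 (8.1%), and 286 of the called genes changed at least 2-fold, 161 upward and 125 downward. Counts of list members below are to be read beside the shares of 7.88% and 8.1%. The median log2 change over all genes tested was -0.01. Treated and untreated arrays did not overlap for 1988 of the 2008 called genes, and for 4240 of the 12566 tested. A lack of overlap thus adds little to a call. The number of calls rested on the arrays used: it was 1183 without untreated array 1 and 1254 without treated array 3. The rises numbered 577 and 628 without these arrays and 622 without treated array 2, and the falls 606 and 626 without the same first pair. Permuting single genes over 3 and 3 arrays cannot go below an exact two-sided p of 0.1, the value found for ASNS, DDIT4 and PLAUR alike, so each adjusted p below comes from limma's fit over all genes.

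**Figure D1:**
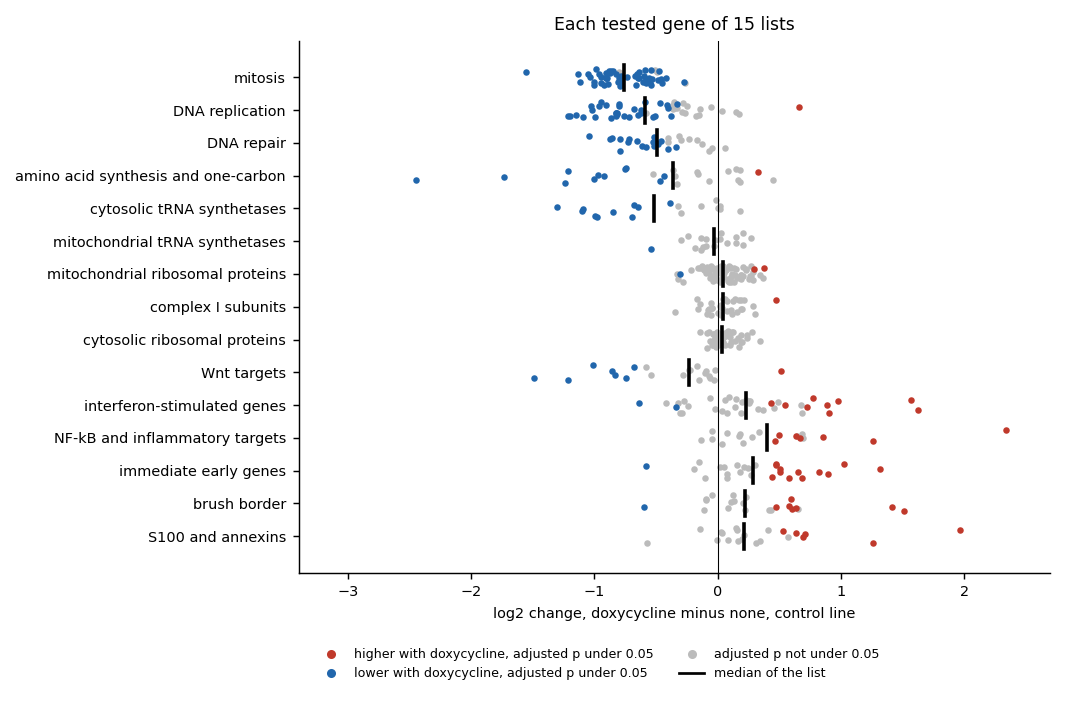
Log2 change with doxycycline in the control line (x axis) for each tested gene of 15 lists (y axis), one point a gene, coloured by call, with a black bar at each list's median. All 56 mitosis genes and 47 of 51 replication genes lie left of 0, with medians of -0.76 and -0.59. Mitochondrial and cytosolic ribosomal proteins cluster at 0 with medians of 0.04.

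Of 25 tested genes of amino acid synthesis and folate metabolism, 11 fell, 1 rose and 13 did not pass the test, with a median log2 change of -0.36. Asparagine synthetase, ASNS, which makes asparagine from aspartate and glutamine, read 13.93, 13.87 and 13.98 without doxycycline and 11.28, 11.83 and 11.34 with it. All 3 treated arrays lay more than 2 log2 units below all 3 untreated arrays. The fall was 5.45-fold (log2 change -2.45 ± 0.14 SE, adjusted p = 3.42e-06), and a further ASNS probe gave -2.04.

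PSAT1, which makes phosphoserine on the way to serine, read 12.47, 12.40 and 12.21 without and 10.51, 10.80 and 10.57 with doxycycline, a 3.32-fold fall (-1.73 ± 0.13, adjusted p = 3.79e-05). The groups did not overlap. The mitochondrial folate enzymes fell beside it: MTHFD1L, which releases formate, fell from a mean of 12.17 to 10.94 (-1.24 ± 0.13, adjusted p = 0.000255). MTHFD2, which oxidises methylene-tetrahydrofolate, read 13.01, 13.04 and 13.32 without and 11.78, 12.23 and 11.72 with the drug (-1.22 ± 0.17, adjusted p = 0.000961). Here too every treated array was the lower. SHMT2, which splits serine in mitochondria, fell by 0.75 log2 units and the cytosolic MTHFD1 by 0.92. BCAT1, a branched-chain aminotransferase, fell by 1.00, and CBS and CTH, which turn homocysteine into cysteine, fell by 0.97 and 0.75. Further probes of CTH gave -0.36 and -0.64 and did not pass.

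The changes at the head of the serine pathway and in proline synthesis were small. PHGDH, the first enzyme of serine synthesis, read 14.71, 14.73 and 14.69 without and 14.30, 14.32 and 14.19 with doxycycline (-0.44 ± 0.11, adjusted p = 0.0194), and its call was lost without treated array 3 and without untreated arrays 1 or 2. PYCR1, which closes the proline ring, fell by 0.47 (adjusted p = 0.0433), and that call was lost when any of 5 single arrays was left out; a further probe gave -0.13 (adjusted p over probes = 0.789). GOT1, an aspartate aminotransferase, was the only member to rise, by 0.33 (adjusted p = 0.0474), a call that was also lost without any of 5 arrays.

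Of 30 ATF4-type stress regulators tested, 8 fell and 2 rose, with a median of -0.18. DDIT4, an inhibitor of the growth kinase mTORC1, read 13.06, 13.30 and 13.10 without doxycycline and 10.45, 10.58 and 10.29 with it. The groups were far apart, and this 6.54-fold fall (-2.71 ± 0.13, adjusted p = 2.8e-06) was the largest of the 12566 genes tested. STC2, a secreted glycoprotein, fell by 1.04 and EIF4EBP1, a translation repressor that mTORC1 phosphorylates, by 1.14. VLDLR, a lipoprotein receptor, fell by 1.19. INHBE, which encodes an inhibin subunit and is also a known stress target, fell 3.63-fold, from 8.91, 8.52 and 9.18 to 6.83, 7.34 and 6.87 (-1.86 ± 0.25, adjusted p = 0.000716).

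The central factors of the response did not pass the test on their brightest probes. ATF4 itself read 14.33, 14.02 and 14.26 without and 14.42, 14.24 and 14.43 with doxycycline (0.16 ± 0.10, adjusted p = 0.348), and the groups overlapped. Its probes disagreed: of its further probes one fell by 1.03 (adjusted p over probes = 0.000969) and another gave 0.58 (adjusted p over probes = 0.11). DDIT3, the pro-apoptotic factor CHOP, gave -0.14 (adjusted p = 0.531) and ATF3 gave -0.15 (adjusted p = 0.58). TRIB3, a pseudokinase induced by ATF4, gave -0.37 (adjusted p = 0.0608). SESN2, which senses leucine, fell by 0.90 (adjusted p = 0.0149), a call lost without treated array 3 and without untreated arrays 1 or 2. CREB3L3, a hepatic and intestinal stress factor, rose by 0.85 and TRIB1 by 0.58.

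Amino acid transporters moved both ways, 11 of 27 falling and 5 rising. SLC6A9, a glycine transporter, read 9.67, 9.51 and 9.61 without and 7.87, 7.84 and 7.64 with doxycycline, a 3.51-fold fall (-1.81 ± 0.10, adjusted p = 3.42e-06) with no overlap; a further probe of it gave -0.08 (adjusted p over probes = 0.885). SLC1A4, which carries alanine and serine, was detected on 3 of 3 untreated arrays and on 0 of 3 treated ones, and was at least 1.68-fold lower with the drug (adjusted p = 0.000303). Such a bound sets the bright group's mean against the lowest signal among probes detected on each array of the other group. SLC7A11, the cystine importer, fell from 8.04, 7.38 and 7.60 to 6.22, 6.63 and 6.60 (-1.19 ± 0.22, adjusted p = 0.00436). SLC7A1, the arginine and lysine carrier, fell by 1.11, SLC1A5, the glutamine carrier, by 0.64 and SLC3A2, the shared heavy chain, by 0.45, with a further SLC3A2 probe at 0.28 (adjusted p over probes = 0.646). SLC7A5, the partner of that chain in leucine import, gave -0.35 (adjusted p = 0.2). The number of falls was 7 without untreated array 1 and with median scaling.

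The transporters that rose include SLC6A20 and SLC3A1, which serve the intestinal and renal brush border. SLC6A20, a proline carrier, read 7.72, 8.07 and 7.48 without and 9.63, 9.92 and 9.54 with doxycycline, a 3.82-fold rise (1.94 ± 0.33, adjusted p = 0.00277). Of its further probes one gave 1.49 and another 0.34 (adjusted p over probes = 0.424). SLC7A8 rose by 1.13, SLC43A2 by 1.02 and SLC3A1, the cystine transporter's heavy chain, by 0.58. In each of these genes the groups did not overlap, and 3 of the 5 rises were called with median scaling.

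**Figure D2:**
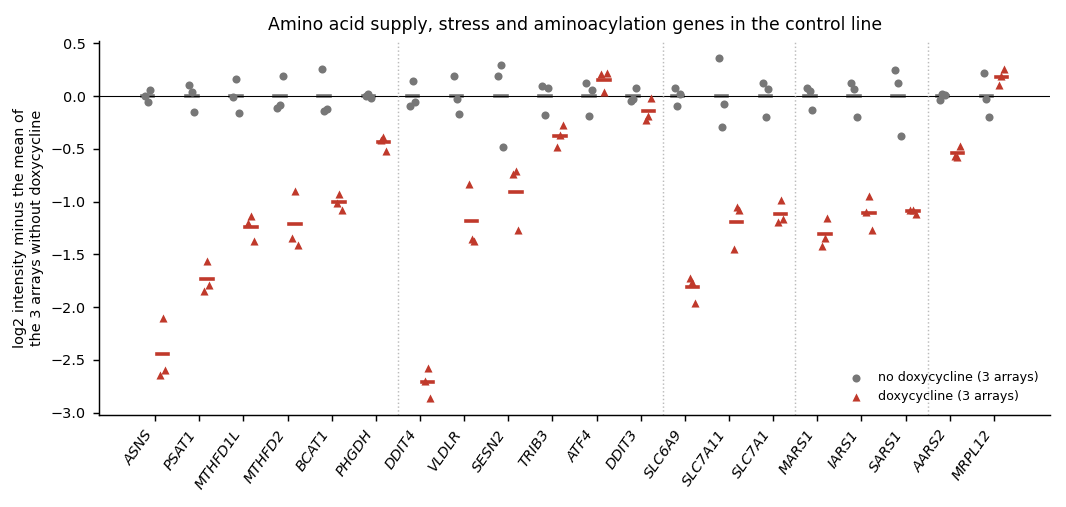
Normalized log2 intensity of 20 genes on each control line array, minus that gene's mean over the 3 arrays without doxycycline (y axis); circles are untreated arrays, triangles treated arrays and bars group means. The means of the treated arrays lie at -2.45 for ASNS and -2.71 for DDIT4, whereas the brightest probes of ATF4 and DDIT3 overlap.

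Aminoacyl-tRNA synthetases join amino acids to transfer RNAs, and separate genes serve the cytosol and the mitochondrion in most cases. Of 18 cytosolic synthetases tested, 10 fell and none rose, with a median of -0.52; by the same test 19 mitochondrial synthetases held 1 fall, AARS2 (-0.54), and a median of -0.03. MARS1, for methionine, fell from 12.95, 12.92 and 12.74 to 11.45, 11.53 and 11.72 (-1.30 ± 0.12, adjusted p = 0.000128). IARS1, for isoleucine, gave -1.10, SARS1, for serine, -1.09 and WARS1, for tryptophan, -0.99, all called; a further IARS1 probe gave -0.55 (adjusted p over probes = 0.166). AARS1, for alanine, read 14.55, 14.68 and 14.71 without and 14.41, 14.38 and 14.27 with doxycycline (-0.30, adjusted p = 0.0616).

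ATF4 acts through amino acid response elements, which share the letters TGATGNAA. On either strand, those letters lie in 3.67% of 27305 promoter windows from RefSeq (GRCh38.p14, 250 bases before to 50 after a start) and in 1.86% of the windows of the genes tested. They lay in 3 of the 9 lowered amino acid synthesis genes with a window in the 1 raised member, GOT1, and in 0 of 9 members that did not pass the test. Among cytosolic synthetases, 3 of 8 lowered and 2 of 7 other members held them, and among the stress regulators 0 of 7 lowered ones did. The lists were drawn up from knowledge of pathways, among them those that ATF4 is known to raise, so a high share is no independent result. Stretches upstream of 4 genes that fell are shown with the match in capitals; IARS1 holds it on the opposite strand. They lie at chr7:97872439-97872498 (ASNS, minus strand), chr6:150866336-150866395 (MTHFD1L, plus), chr12:24949122-24949181 (BCAT1, minus) and chr9:92293698-92293757 (IARS1, minus).
ASNS: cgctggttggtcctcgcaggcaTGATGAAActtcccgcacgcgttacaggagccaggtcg
MTHFD1L: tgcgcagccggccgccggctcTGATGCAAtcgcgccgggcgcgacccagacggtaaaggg
BCAT1: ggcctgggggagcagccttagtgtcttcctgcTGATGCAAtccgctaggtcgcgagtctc
IARS1: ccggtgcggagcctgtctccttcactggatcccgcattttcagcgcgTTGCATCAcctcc

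Of 78 nuclear genes listed as mitochondrial ribosomal proteins, 2 rose and 1 fell, against 16% of all genes called in either direction. Their changes ran from -0.33 to 0.38 around a median of 0.04. The riser KGD4 was listed under its older name MRPS36, and its current name is not that of a ribosomal protein. It read 10.85, 10.55 and 10.95 without and 11.20, 11.11 and 11.17 with doxycycline (adjusted p = 0.0362), a call lost without any of 5 arrays. Of 34 complex I subunits 1 rose, NDUFA7 (0.47), of 12 subunits of complexes II and III 1 fell, CYCS (-0.39), and of 11 of complex IV none passed the test. ATP synthase had 2 of 16 higher (12.5%, against 7.88% of all genes tested), ATP5F1D (0.44) and ATP5IF1 (0.33). Leaving out untreated array 1 took each of these calls away. The further probes of the 2 ATP synthase genes went the other way by limma. That of ATP5F1D gave -0.45 (adjusted p over probes = 0.0572) and that of ATP5IF1 -0.49 (adjusted p over probes = 0.0376). With the kept probes of a gene averaged, 0 ATP synthase genes were called higher. The subunits that mitochondria encode themselves were not analysed here.

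Of 30 mitochondrial chaperone and protease genes 2 rose and 1 fell. PINK1, the kinase that marks damaged mitochondria for removal, read 10.27, 10.32 and 10.72 without and 11.31, 11.33 and 11.26 with doxycycline (0.86 ± 0.13, adjusted p = 0.00115), with no overlap. LONP1, a matrix protease, fell by 0.55 (adjusted p = 0.0186), a call lost without treated array 2 and without untreated array 1. PC, pyruvate carboxylase, rose by 0.88 and was the only member called of 24 citric acid cycle genes. Of 52 cytosolic ribosomal proteins none passed the test. With arrays scaled to a common median in place of quantiles, the medians of these bright genes moved up, to 0.30 for cytosolic ribosomal proteins, 0.25 for complex IV and 0.26 for ATP synthase, with none called in these 3 lists.

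Of 56 tested mitosis genes, 52 fell and none rose, with a median log2 change of -0.76. FOXM1, the transcription factor of the mitotic programme, fell most, from 11.30, 11.75 and 10.87 to 9.85, 9.79 and 9.60 (-1.56 ± 0.22, adjusted p = 0.000999). AURKB, the kinase of the chromosomal passenger complex, read 11.58, 11.27 and 11.38 without and 10.24, 10.28 and 10.35 with doxycycline (-1.12 ± 0.15, adjusted p = 0.000765). In both, all treated arrays were the lower. The proliferation marker MKI67 fell by 0.94, the kinase PLK1 by 0.90 and the spindle protein HMMR by 0.94. The core kinase CDK1 fell less, from a mean of 13.23 to 12.78 (-0.45 ± 0.10, adjusted p = 0.0125).

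The 4 mitosis genes that did not pass the test had lower means too. NUF2, of the kinetochore, gave -0.80 (adjusted p = 0.0573), BUB1B, of the spindle checkpoint, -0.51 (adjusted p = 0.155), CCNB1, cyclin B1, -0.49 (adjusted p = 0.147) and INCENP -0.27 (adjusted p = 0.14). Leaving out any single control line array left 47 to 51 mitosis genes lower. At a required fold change of 1.5, none of the 52 passed, and the changes of the 56 genes ran from -1.56 to -0.27.

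DNA replication had 33 of 51 genes lower, 1 higher and a median of -0.59. CDC45, part of the replicative helicase, read 11.88, 11.73 and 11.62 without and 10.49, 10.56 and 10.53 with doxycycline (-1.22 ± 0.11, adjusted p = 9.2e-05). GINS2, another part of it, fell by 1.19, the helicase ring subunit MCM2 by 1.15 and DNA ligase LIG1 by 0.96, and in all of these the groups lay apart. GINS1 alone rose, from 6.59, 6.07 and 6.69 to 7.36, 6.75 and 7.24 (0.66, adjusted p = 0.0454); its signal was near background, detected on 2 of 3 untreated arrays, and the call was lost without any of 4 arrays. Nucleotide synthesis had 10 of 24 genes lower, 6 without treated array 3 and 2 with median scaling, led by DUT, which removes dUTP (-1.22), and TK1, thymidine kinase (-0.97). Of the further DUT probes one gave -1.12 and another 0.00 (adjusted p over probes = 0.998). Of 28 DNA repair genes 17 were lower, among them BLM (-1.05), RAD54L (-0.87) and BRCA1 (-0.86); with median scaling the count was 8.

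**Figure D3:**
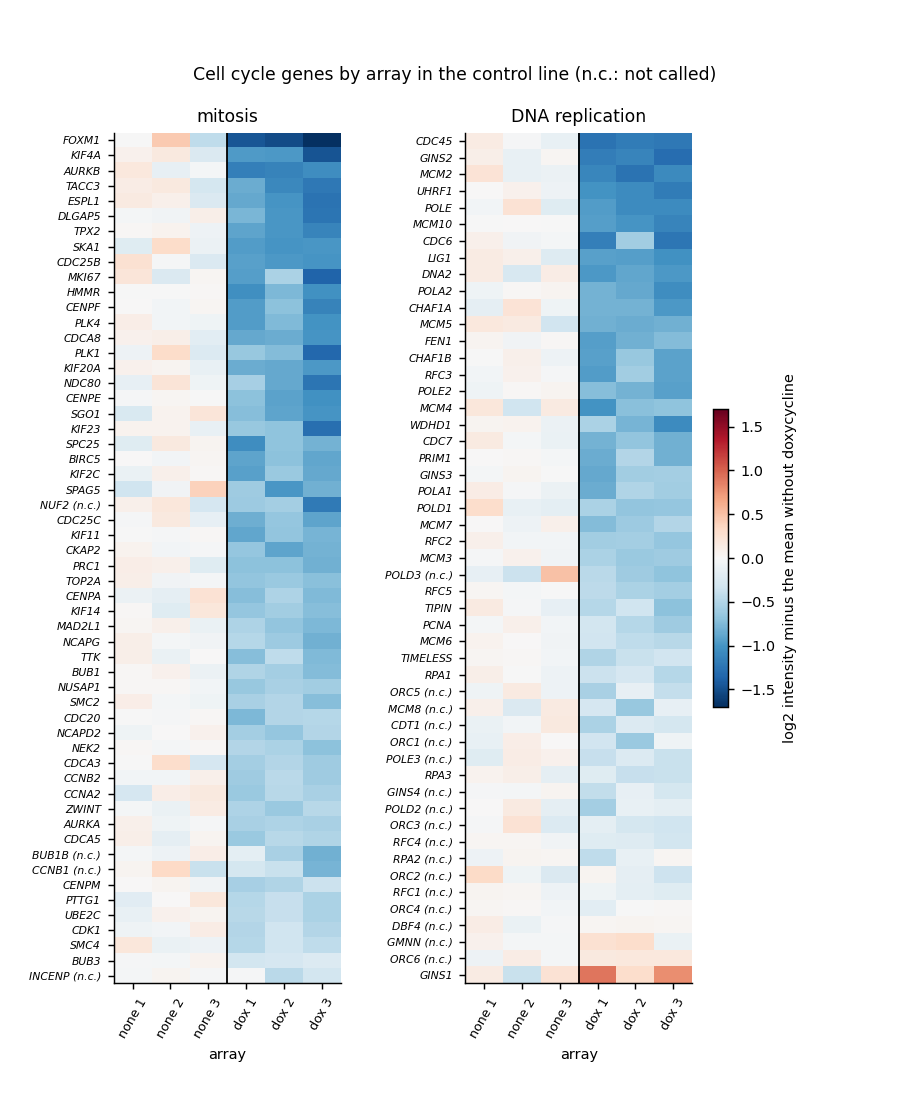
Each tested mitosis gene (left) and DNA replication gene (right) on the 6 control line arrays, as log2 intensity minus the mean of the 3 untreated arrays on a blue to red colour scale; genes marked n.c. did not pass the test. The 3 treated columns are blue for nearly all rows, and GINS1 is the red row at the bottom right.

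Among regulators of the G1 to S transition 10 of 28 fell and 1 rose. CDKN1A, the kinase inhibitor p21, read 10.93, 11.35 and 11.08 without and 12.19, 12.19 and 12.47 with doxycycline (1.17 ± 0.16, adjusted p = 0.000961), a 2.25-fold rise without overlap. The falls included the E2F family members E2F8 (-1.09), E2F7 (-1.08) and E2F2 (-0.99) and cyclin E1, CCNE1 (-0.59). Other genes known as p53 targets did not go one way. PLK2 rose by 1.09 (adjusted p = 0.0382), a call lost without any of 5 arrays, whereas PMAIP1, the pro-death protein NOXA, fell from 3 of 3 arrays detected to 0 of 3 and was at least 1.51-fold lower. Of 22 such genes 3 rose (13.6%) and 3 fell (13.6%), against 7.88% and 8.1% of all genes tested. The falls numbered 1 without any of 3 single arrays.

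Of 21 histone and histone chaperone genes 4 rose, 6 fell and 11 did not pass the test. The chaperones ASF1B (-1.24) and NASP (-0.73) fell, while H2AC6 (1.44), H2AC18 (0.84), H2BC5 (0.70) and H2AC8 (0.64) rose. Histone genes have near-identical copies, so their probes cannot be assigned to a single copy with certainty.

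Mitotic promoters often hold the letters TTTGAA, the core of the element bound by DREAM, and E2F factors bind TTTCCCGC, TTTGGCGC, TTTGCCGC or TTTCGCGC. On either strand TTTGAA lay in 30 of 44 lowered mitosis genes with a window and in 3 of 4 that did not pass, against 15.4% of all promoters and 10.2% of those tested. An E2F word lay in 15 of 29 lowered replication genes in the 1 raised, GINS1, and in 3 of 14 that did not pass, against 3.33% of all and 5.35% of those tested. E2F words can overlap on opposite strands. The mitosis and replication lists were drawn up from knowledge of these pathways, so a high share is no independent result. The examples show the TTTGAA match of 4 mitosis genes, tandem in HMMR, and the E2F matches of 3 replication genes, which in MCM6 form the same 12 letters at both places. They lie at chr1:37692456-37692515 (CDCA8, plus strand), chr15:59105086-59105145 (CCNB2, plus), chr5:163460572-163460631 (HMMR, plus), chr16:23678829-23678888 (PLK1, plus), chr2:135876514-135876613 (MCM6, minus), chr13:33818059-33818118 (RFC3, plus) and chr19:48170425-48170484 (LIG1, minus).
CDCA8: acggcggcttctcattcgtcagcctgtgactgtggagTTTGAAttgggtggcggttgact
CCNB2: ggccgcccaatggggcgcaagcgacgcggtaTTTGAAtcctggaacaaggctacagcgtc
HMMR: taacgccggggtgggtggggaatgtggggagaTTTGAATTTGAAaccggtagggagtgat
PLK1: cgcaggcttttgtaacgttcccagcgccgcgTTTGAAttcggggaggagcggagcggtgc
MCM6: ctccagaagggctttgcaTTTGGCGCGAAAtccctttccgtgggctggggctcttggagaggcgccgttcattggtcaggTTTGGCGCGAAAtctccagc
RFC3: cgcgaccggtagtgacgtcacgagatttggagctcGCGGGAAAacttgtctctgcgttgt
LIG1: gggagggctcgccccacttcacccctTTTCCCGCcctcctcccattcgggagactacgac

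The genes with a match fell by unlike amounts: CDCA8 by 0.90, CCNB2 by 0.56, MCM6 by 0.41, RFC3 by 0.82 and LIG1 by 0.96.

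Wnt targets, which mark crypt stem cells and are switched on in colorectal cancer by lasting beta-catenin activity, fell in 7 of 21 cases and rose in 1, with a median of -0.23. NKD1, a feedback inhibitor, read 9.92, 9.64 and 9.57 without and 8.36, 8.27 and 8.03 with doxycycline (-1.49 ± 0.14, adjusted p = 0.00017). The transcription factor SP5 fell by 1.22, ASCL2, the factor of intestinal stem cells, by 1.02 and the scaffold AXIN2 by 0.75. For all of these the treated arrays were the lower. NR5A2, the named target of the hairpin in the shRNA-labelled line, read 10.12, 10.14 and 10.29 without doxycycline in the control line and had a mean of 11.07 with it, with the highest treated array at 11.20 and the groups apart, a 1.85-fold rise (0.89 ± 0.10, adjusted p = 0.000387); a further probe gave 0.59. Of 9 genes described elsewhere as LRH-1 targets, CCNE1 was the only one called.

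Of 22 genes listed for the brush border 7 rose and 1 fell. LCT, lactase, read 8.68, 8.80 and 8.68 without and 10.42, 9.97 and 10.32 with doxycycline (1.51 ± 0.19, adjusted p = 0.000512), and VIPR1, the receptor of vasoactive intestinal peptide, rose by 1.41 (adjusted p = 2.27e-05). SI, sucrase-isomaltase, rose by 0.59 (adjusted p = 0.0358), a call lost without any 1 of the 6 arrays. The count of rises was 4 without treated array 1 or untreated arrays 1 or 2, and 2 with median scaling. Of the 17 enterocyte markers, LCT, SI, KRT18 (1.13) and KRT20 rose. KRT20, the keratin of mature enterocytes, read 6.77, 6.97 and 6.40 without and 8.21, 8.65 and 8.55 with the drug, a 3.38-fold rise (1.76 ± 0.38, adjusted p = 0.00912), detected on 2 of 3 untreated arrays. The mucins MUC1 and MUC13 rose by 1.17 and 0.95 and CEACAM1, an adhesion molecule, by 0.94. A further probe of MUC1 gave 0.01 (adjusted p over probes = 0.973), and one of KRT18 gave 0.35 (adjusted p over probes = 0.431).

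Markers of other cell types moved in part. Of 6 fibroblast markers that could be tested 3 rose, LUM (0.95), PDGFRA (0.75) and PDGFRB (0.62), and the mean log2 level of the 6 was 8.78 to 8.81 on untreated and 9.24 to 9.40 on treated arrays; COL1A2, COL3A1, THY1 and FAP did not pass the detection filter, and a further PDGFRA probe gave 0.43 (adjusted p over probes = 0.104). Of 4 Paneth cell markers ITLN2 (1.46) and LYZ (0.87) rose, at a mean of 7.73 to 8.12 without and 8.44 to 9.12 with the drug, and the defensins DEFA5 and DEFA6 were not kept. Of 4 leukocyte markers CD3D rose (1.51) and CD14 fell (-0.68). All 9 hepatocyte markers were detected on all 6 arrays, with TF, transferrin, the only one called (-0.67). Their part in the results was not tested, and fewer cells of a kind cannot be told apart from less RNA per cell.

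Among matrix proteases, their inhibitors and the plasminogen activator system, 4 of 17 rose and none fell. PLAUR, the urokinase receptor, read 6.37, 6.78 and 6.61 without and 7.85, 8.87 and 8.45 with doxycycline (1.80 ± 0.22, adjusted p = 0.00046); of its further probes one gave 2.22 and another 0.70 (adjusted p over probes = 0.107). MMP10, stromelysin-2, rose from 9.29, 9.29 and 8.70 to 10.18, 11.17 and 10.43, a 2.83-fold rise (adjusted p = 0.0106). In both the groups were apart, with a spread of about 1 log2 unit among the treated arrays. TIMP1 (0.74) and TIMP2 (0.40) rose too, and 2 of the 4 were called without treated array 2, without untreated arrays 1 or 3, or with median scaling. S100A3, a calcium-binding protein, was detected on 0 of 3 untreated and 3 of 3 treated arrays and was at least 2.39-fold higher (adjusted p = 0.00251). Of 21 S100 and annexin genes 6 rose, 3 without array 2 of either group. ANXA1, an annexin of membrane repair and inflammation, rose by 1.26 (adjusted p = 0.0223), and its call was lost without treated array 2 or any untreated array.

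Immediate early genes, which answer growth factor and stress signals, rose in 12 of 26 cases and fell in 1, with a median of 0.28. DUSP5, a phosphatase of the ERK kinase, read 11.16, 11.39 and 11.54 without and 12.69, 12.70 and 12.63 with doxycycline (1.31 ± 0.15, adjusted p = 0.000385). KLF6 rose by 1.03, FOSB by 0.90 and ZFP36, which destabilises inflammatory messages, by 0.82. The count of 12 was not steady: it was 7 without any 1 of the treated arrays, and 5 without untreated array 1 or with median scaling.

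Of 20 NF-kB and inflammatory targets 7 rose and none fell, with a median of 0.40. LTB, lymphotoxin beta, was detected on 0 of 3 untreated and 3 of 3 treated arrays, at 5.39, 5.33 and 5.63 against 7.59, 8.19 and 7.60, and was at least 2.48-fold higher (adjusted p = 0.000194). IL32, a cytokine of epithelia and lymphocytes, rose from 11.16, 10.86 and 11.47 to 12.23, 12.53 and 12.51 (1.26 ± 0.16, adjusted p = 0.000648). The chemokine CCL20 rose by 0.85. The treated arrays were the higher in each of these, and 4 of the 7 rises were called with median scaling.

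**Figure D4:**
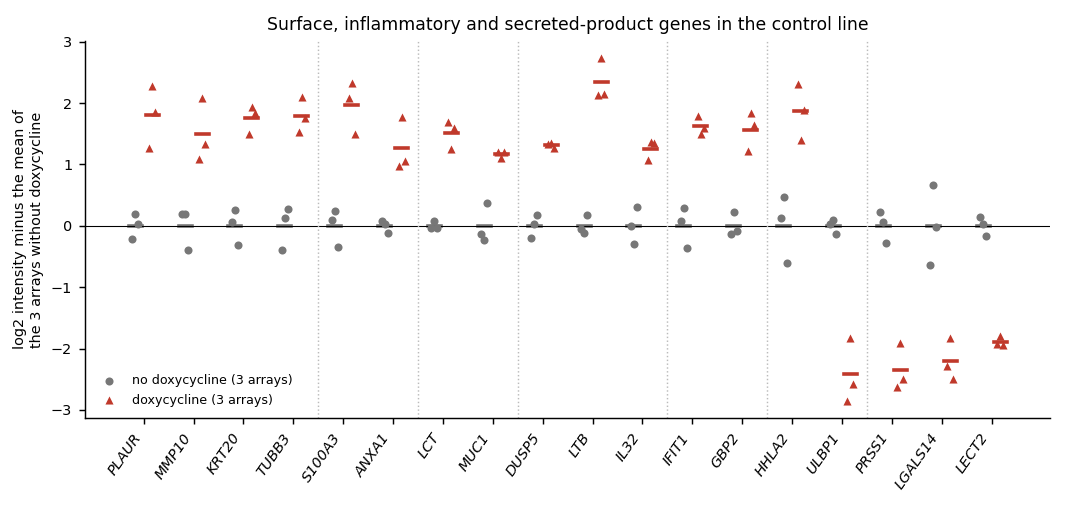
Normalized log2 intensity of 18 genes on each control line array, minus that gene's mean over the 3 untreated arrays (y axis); circles are untreated arrays, triangles treated arrays and bars group means. Treated arrays of PLAUR and LTB lie 1.80 and 2.34 units above the untreated mean, and those of ULBP1 at -2.42.

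Of 37 interferon-stimulated genes 9 rose and 2 fell, with a median of 0.23. IFIT1, which binds foreign RNA caps, read 7.88, 8.10 and 7.45 without and 9.60, 9.31 and 9.41 with doxycycline, a 3.09-fold rise (1.63 ± 0.19, adjusted p = 0.000387). GBP2, a guanylate-binding protein of cell-autonomous defence, rose by 1.57 and the antiviral GTPase MX1 by 0.91, from 8.84, 9.05 and 8.95 to 9.70, 9.83 and 10.03. OAS3, which makes the activator of RNase L, fell by 0.64. The groups were apart in these 4 genes. The rises numbered 5 without treated array 2 or without untreated array 1.

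The interferon response element holds the letters GAAANNGAA. Those lay, on either strand, in 6 of 7 raised list members with a window, in 1 of 2 lowered ones and in 13 of 22 that did not pass the test, against 8.29% of all promoters and 6.43% of those tested. They are shown for 3 raised genes, at chr10:89392493-89392542 (IFIT1, plus strand), chr10:89327837-89327896 (IFIT3, plus) and chr15:88638926-88638985 (ISG20, plus); in IFIT1 and IFIT3 the capitals mark the opposite strand's match, which occurs at 2 places in each.
IFIT1: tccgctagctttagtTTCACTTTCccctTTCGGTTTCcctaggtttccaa
IFIT3: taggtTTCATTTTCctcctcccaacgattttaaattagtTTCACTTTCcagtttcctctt
ISG20: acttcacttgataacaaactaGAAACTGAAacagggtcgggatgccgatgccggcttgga

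IFIT3 rose by 0.72, with a further probe at 0.28 (adjusted p over probes = 0.485), and ISG20 by 0.44 (adjusted p = 0.0452), the latter a call lost without any of 5 arrays. OAS3, which fell, also holds a match. The list was drawn up from known interferon-stimulated genes, so a high share of matches is no independent result.

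Of 13 ligands of NKG2D and members of the B7 family, which natural killer and T cells see, 4 rose and 1 fell, with 2 of the rises called with median scaling. ULBP1, a stress ligand of the receptor NKG2D, read 8.81, 8.87 and 8.65 without and 5.92, 6.95 and 6.20 with doxycycline, a 5.35-fold fall (-2.42 ± 0.24, adjusted p = 0.00019); it was detected on 1 of 3 treated arrays. Its relatives rose, ULBP2 by 0.67 and MICA by 0.63. HHLA2, a member of the B7 family, rose from 6.85, 7.20 and 6.13 to 9.03, 8.13 and 8.61 (1.87 ± 0.27, adjusted p = 0.00111), and the checkpoint protein VSIR by 1.23. Of 18 genes of MHC class I presentation 4 rose and 1 fell, among them HLA-E (0.57) and the peptide pump subunits TAP1 (0.50) and TAP2 (-0.53). Without untreated array 1, 1 of these rises was called, and 2 were without treated arrays 2 or 3 or untreated array 2; with median scaling none was.

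G0S2, which inhibits the fat-droplet lipase, read 9.03, 9.12 and 8.66 without and 6.89, 7.07 and 7.18 with doxycycline (-1.88 ± 0.14, adjusted p = 3.71e-05). ARRDC4, an arrestin that restrains glucose uptake, fell from 9.04, 8.86 and 8.75 to 6.78, 7.57 and 6.53 (-1.93 ± 0.24, adjusted p = 0.000563). In both, treated arrays lay below untreated ones. Its relative TXNIP fell by 0.73, a call lost without any of 4 arrays. Of 31 glycolysis and glucose uptake genes, the fructose carrier SLC2A5 (0.86), ALDOC (0.80) and PDK4 (0.90) rose, 1 of them without treated array 2. These are 9.68% of that list, against 7.88% of all genes tested. ACACA, acetyl-CoA carboxylase, fell by 0.70. SLC30A2, a zinc exporter, rose by 1.54, the aldo-keto reductase AKR1B10 by 1.31 and the sulfotransferase SULT1B1 by 1.41. Cytosolic heat shock proteins had 0 of 12 called, and of 21 endoplasmic reticulum chaperone and unfolded protein genes 1 fell, SEL1L (-0.51).

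The further genes with the largest changes span many functions. AMHR2, the receptor of anti-Müllerian hormone, and UCA1, a long noncoding RNA, were detected on 0 of 3 untreated and 3 of 3 treated arrays, and were at least 3.66-fold and 3.04-fold higher. The keratin pseudogene KRT16P2 was at least 3.35-fold higher in the same way; a probe for a pseudogene may also read its parent gene. TESC, a calcium-binding regulator of sodium-proton exchange, rose from 8.05, 8.29 and 8.34 to 9.91, 10.11 and 10.39 (1.91 ± 0.17, adjusted p = 9.2e-05). The small GTPase RRAS rose by 1.81, ERICH4 by 1.84, SERPINA6, corticosteroid-binding globulin, by 1.74 and TUBB3, a beta-tubulin of neurons, by 1.79. A lack of overlap between the groups was required for naming these genes, so it adds nothing to their calls.

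Among the falls, PRSS1, cationic trypsinogen, read 11.09, 10.93 and 10.59 without and 8.24, 8.96 and 8.38 with doxycycline (-2.34 ± 0.22, adjusted p = 0.000157); close copies of trypsinogen may share its probe. LGALS14, a placental galectin, spread widely without the drug, at 9.88, 11.20 and 10.51, and read 8.25, 8.70 and 8.03 with it (-2.20 ± 0.28, adjusted p = 0.000534). UTS2, the vasoactive peptide urotensin II, fell by 1.99, BFSP1, a lens filament protein, by 1.82 and TUBB1, the beta-tubulin of platelets, by 1.88. SNAR-A1, a small noncoding RNA with near-identical copies, fell from 12.24, 11.89 and 11.43 to 10.56, 9.30 and 8.45, with treated arrays that spread over about 2 log2 units. LECT2, a chemotactic protein secreted by liver, was detected on 0 of 3 treated arrays and was at least 1.88-fold lower.

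The largest rise of all was at a microRNA gene, MIR614, at 5.58, 6.01 and 7.59 without and 8.42, 8.67 and 9.27 with doxycycline (2.40 ± 0.43, adjusted p = 0.00367). It was detected on 1 of 3 untreated arrays, and those differed by about 2 log2 units. Of 53 microRNA genes 3 rose (5.66%, against 7.88% of all genes tested) and none fell. MIR21 rose by 0.90, from 7.70, 8.08 and 8.05 to 8.61, 8.83 and 9.08, and MIR507, detected with the drug only, was at least 1.44-fold higher. The latter pair was named after its values were seen. The arrays read transcripts of the locus and do not tell a mature microRNA from its precursor. The mature sequences are shown with the seed, bases 2 to 8, in capitals, and no seed is shared; they lie at chr12:12915882-12915904 (plus strand), chr17:59841273-59841294 (plus) and chrX:147231002-147231022 (minus).
hsa-miR-614: gAACGCCUguucuugccaggugg
hsa-miR-21-5p: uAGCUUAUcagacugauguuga
hsa-miR-507: uUUUGCACcuuuuggagugaa

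To see which of these responses depended on the line, each gene's change was compared with that in the shRNA-labelled line, where doxycycline raised 815 genes (6.49%) and lowered 630 (5.01%). Of the genes raised in the control line 410 were raised there too, which is 41.4% of the control line's and 50.3% of the other line's rises, and 258 fell in both, 25.3% and 41.0% of the falls. The difference of the responses passed the test for 106 genes (0.844%), 48 with the higher and 58 with the lower response in the control line. This count was unsteady. It was 15 without control line treated array 3, 207 without treated array 3 of the shRNA-labelled line, and 18 to 29 without any of 8 other arrays. In this contrast the hairpin's effect and any other difference between the lines cannot be told apart.

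The difference passed for 4 of 25 amino acid synthesis genes, 1 of 30 stress regulators, 1 of 27 transporters and 2 of 18 cytosolic synthetases, each with the lower value in the control line. DDIT4 fell by 2.71 in the control line and gave -0.05 in the shRNA-labelled line (difference -2.66, adjusted p = 0.000163). ASNS fell in both lines, with changes of -2.45 and -0.93 (difference -1.52, adjusted p = 0.0108), and both genes kept their call when any 1 of the 12 arrays was left out. PSAT1 differed by -1.12, MTHFD1 by -1.04, SLC7A1 by -0.90 and IARS1 by -0.79. Of the 12 such fits these kept their calls in 4, 4, 1 and 2, in that order. For these the fall was larger in the control line, and MTHFD1 gave 0.12 in the shRNA-labelled line. SLC6A9 (difference -0.65, adjusted p = 0.0561), G0S2 (0.16, adjusted p = 0.75) and CDKN1A (0.47, adjusted p = 0.356) did not pass. Of the 56 mitosis genes 12 fell in the shRNA-labelled line, with a median of -0.27 against -0.76, and for none of them did the difference of responses pass the test.

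IFIT1 rose by 1.63 in the control line and gave 0.05 in the shRNA-labelled line (difference 1.58, adjusted p = 0.0318), and MX1 gave -0.05 there (difference 0.96, adjusted p = 0.04). Some products known from liver had opposite changes in the lines. TDO2, which degrades tryptophan, read 9.93, 10.03 and 10.08 without and 10.87, 10.77 and 10.90 with doxycycline in the control line, and fell by 0.85 in the shRNA-labelled line (difference 1.68, adjusted p = 0.00716). GSTA5, a glutathione transferase with close paralogs, gave 0.86 and -0.97 (difference 1.83). HPX, hemopexin, gave 0.76 (adjusted p = 0.0648) and -1.21 (difference 1.97), and AFM, afamin, 0.79 and -1.05 (difference 1.84). STC1 (2.41, adjusted p = 0.0458 by limma) and LDHD (2.16, adjusted p = 0.048) had the largest differences in this direction. Each kept its call in 1 of the 12 fits that left out a single array. HPX, AFM and MX1 kept theirs in 3, IFIT1 in 4, and TDO2 and GSTA5 in 12.

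In the opposite direction HOXB8, a homeobox gene, differed by -2.86: it gave -0.74 in the control line (adjusted p = 0.111) and rose by 2.12 in the shRNA-labelled line. CEACAM5, carcinoembryonic antigen, read 10.81, 10.49 and 10.03 without and 10.90, 11.15 and 10.88 with doxycycline in the control line (0.53, adjusted p = 0.177). In the shRNA-labelled line it rose by 2.85, from a mean of 7.91 to 10.76 (difference -2.32, adjusted p = 0.0178). The untreated means of CEACAM5 thus lay apart, at 10.45 in the control line, while the treated means were close, at 10.97 there. ACTG2, an actin of smooth muscle, differed by -2.17. With single arrays left out its call was kept in 3 of 12 fits, that of HOXB8 in 11 and that of CEACAM5 in 9. NR5A2 rose in both lines, by 0.89 and 0.50, and its difference did not pass the test (0.38, unadjusted 95% interval 0.06 to 0.71, adjusted p = 0.231).

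**Figure D5:**
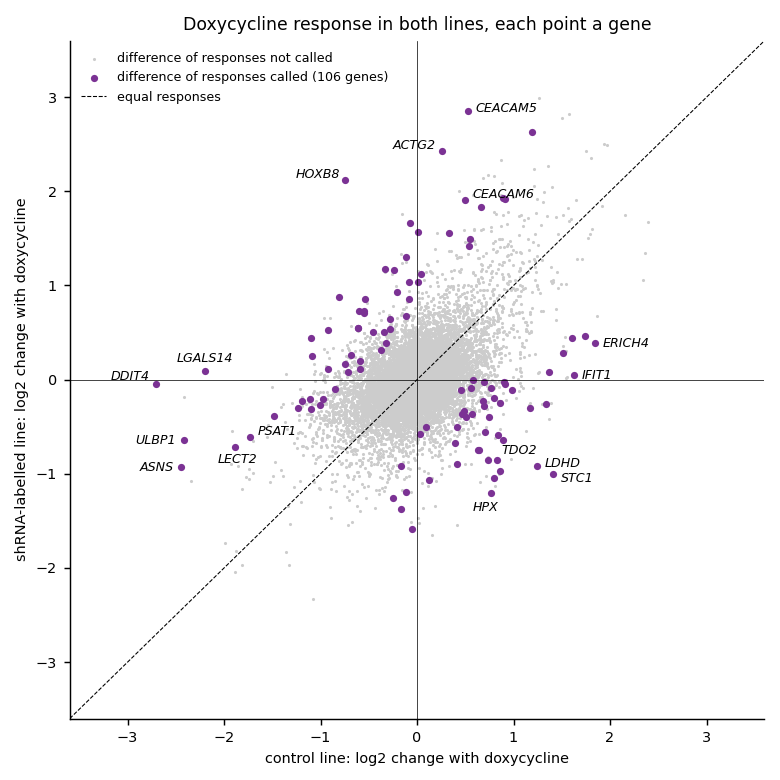
Log2 change with doxycycline in the control line (x axis) against that in the shRNA-labelled line (y axis), one point a gene; purple points mark the 106 genes whose difference of responses passed the test, and the dashed line marks equal responses. DDIT4 lies at -2.71 and -0.05, and HOXB8 at -0.74 and 2.12.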

How the data were processed

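Biotin-labelled copies of total RNA were read on Illumina bead arrays. The deposited intensity values are the mean bead signal per probe and array, not normalized per the file headers, and the deposited detection p-values come beside them per the file headers. A deposited table of log2 values by the authors was used as an alternative only. GenomeStudio and lumi are named in the submitters' processing notes, with no role or version.

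Intensities were background-corrected with normexp from the detection p-values (offset 16), quantile-normalized and put on the log2 scale with limma 3.58.1 in R 4.3.3. Of 47314 probes 30109 had 1 gene symbol in GEO's platform annotation, 8 several and 17197 none; 30070 matched RefSeq, whose symbols were used. A probe was kept when its detection p was under 0.05 on at least 3 of 12 arrays, which left 22417. The brightest kept probe stood for each of 12566 genes, of which 3311 had further kept probes. Where a gene was undetected on all 3 arrays of a group, a fold is given as a bound.

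A means model of the 4 groups of 3 arrays was fitted to all 12 arrays, with empirical Bayes variances, two-sided tests and Benjamini-Hochberg adjustment over all genes. Same-numbered arrays of the 2 control line groups deviated from their group means with correlations of 0.136, 0.069 and 0.232, so numbers were not used as pairs. Precision is limited by 3 arrays a group. The script was tested on simulated data.

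Named genes are the 15 largest rises and 15 largest falls without overlap between groups, NR5A2, members of pathway and cell marker lists, and the 6 largest differences between lines each way. Symbols of uncharacterised loci and genes of the Y chromosome were left out of the first rule. The genes, lists and tests were chosen with earlier results of these data known, so lists are described by counts and medians and not tested. Alternatives covered background correction, normalization, filters, probe choice, variance model, array weights, a fold limit, a replicate block, the control line arrays alone, the authors' table and single arrays left out. Promoter and microRNA sequences are from RefSeq, GRCh38.p14.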

Additional observations from a re-analysis of the deposited data

Results flagged for a closer look

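The genes below are named genes or list members whose doxycycline response differed between the control line and the shRNA-labelled line by limma's test of the difference itself, and each value is the control line's log2 change minus the other's. The controls of each line are its own. The number of such calls moved from 15 to 207 with single arrays left out, so each value rests on these 12 arrays.

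The response was lower in the control line for HOXB8 (-2.86), CEACAM5 (-2.32), CEACAM6 (-1.41) and ACTG2 (-2.17), and for CD44 (-1.40), an adhesion receptor, ITGA5 (-0.92), an integrin, and CTNND1 (-1.16), a catenin of cell junctions. In the control line CTNND1 gave -0.61 on this probe and 0.34 on another (adjusted p over probes = 0.366). It was lower for the stress and amino acid genes DDIT4 (-2.66), ASNS (-1.52), PSAT1 (-1.12), MTHFD1 (-1.04), MTHFD1L (-0.93), SLC7A1 (-0.90), IARS1 (-0.79) and EPRS1 (-0.75). The same held for LGALS14 (-2.30), ULBP1 (-1.77), LECT2 (-1.17) and the small nucleolar RNA SNORD46 (-1.27).

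The response was higher in the control line for STC1 (2.41), LDHD (2.16), HPX (1.97), AFM (1.84), GSTA5 (1.83), TDO2 (1.68), SERPINA6 (1.28) and APOH (1.19), and for ERICH4 (1.46) and CD3D (1.23). Of immune genes IFIT1 (1.58), MICA (1.38), MX1 (0.96) and TAP1 (0.90) belonged here. So did CYBRD1 (0.85), which reduces dietary iron, and the sterol enzymes MSMO1 (0.83) and SC5D (0.59).

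Probes that the annotation gives no gene symbol took no part in the comparisons. Of these, 32 were detected on 3 of 3 treated and 0 of 3 untreated control line arrays, and 18 the other way round.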

How the results depend on the processing

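With arrays scaled to a common median, doxycycline called 1027 genes in the control line, 424 higher and 603 lower, and with a required fold of 1.5 by limma's treat 57, 26 and 31. Leaving out single control line arrays gave 1183 to 2091 calls, 577 to 1017 higher and 606 to 1074 lower. The difference between lines was called for 318 genes without background correction, 57 with median scaling, 43 with no detection filter, 527 with array weights, 301 with a trended robust variance, 1 with a fold of 1.5, and 15 to 207 with single arrays left out; the causes were not tested. A replicate block gave 1948 calls, 972 higher and 976 lower, and 83 differences, and it ended the calls of difference for LDHD and ULBP1. Of the 388 genes called in the control line among the named genes and list members, the block ended 19 calls, CYCS, PYCR1, GOT1, PLK2 and TF among them, and it called 26 others; the numbers are not known to pair arrays. The authors' deposited log2 table gave 2078 calls and 129 differences. Its column medians were all 6.64 and it correlated with the raw log2 intensities at 0.983 to 0.994, so its scale and direction are known, while its background step is not. Of the same 388 calls median scaling kept 248, no detection filter 342, the control line arrays alone 327, averaging a gene's kept probes 365, the required fold 38, and leaving out single control line arrays 274 to 335. With averaged probes 5 of the 388 changes turned direction, none of them past the threshold, and under the other alternatives none turned. For the 15 largest rises, 15 largest falls and NR5A2, no call was lost except 7 with the required fold. Of the checks of the named differences 170 stayed called and 88 were lost. Low signals limit genes detected on under 3 arrays of a group, whose folds are bounds or rest on values near background.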

Other observations

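Small nucleolar RNA genes, which guide chemical marks on ribosomal and spliceosomal RNA, were lower in part. This list was taken from the RefSeq gene types after the values were seen. Of 144 tested, 22 fell and none rose, with a median log2 change of -0.13, against 8.1% of all genes lower. SNORD11 fell by 1.06, from 8.67, 7.98 and 8.36 to 7.34, 7.31 and 7.18, and SNORA11B by 1.05, from 8.90, 8.74 and 8.54 to 8.49, 7.56 and 6.97. The groups did not overlap in either, but the count was 6 without treated array 2, 4 without treated array 3, 5 without untreated array 1 and 11 without untreated array 2. TERC, the RNA template of telomerase, fell by 0.57 (adjusted p = 0.00857 by limma). SCARNA23, a Cajal body RNA, fell from 11.65, 11.17 and 10.96 to 9.75, 9.52 and 8.74.

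Differences between the lines that kept their call when any 1 of the 12 arrays was left out numbered 14 of 106. They included secreted products known from liver, named here after their values were seen. FGL1, a fibrinogen-like protein, had a mean of 9.01 without doxycycline and read 10.14, 10.38 and 10.54 with it in the control line, a rise of 1.34, and gave -0.26 in the shRNA-labelled line (difference 1.60, adjusted p = 0.00716 by limma). F10, clotting factor X, rose by 0.65 and APOF, an apolipoprotein, by 0.39 in the control line, and both fell in the shRNA-labelled line, by 0.75 and 0.67. APOH gave 0.12 in the control line (adjusted p = 0.521) and fell by 1.07 in the other. TSPAN8, a tetraspanin of the gut epithelium, gave 0.00 in the control line and rose by 1.04 in the other.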
